A study of Mus musculus with 2 samples.

Results

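Gasdermins are proteins that, once cut by a protease, open pores in membranes. The 6 gasdermin genes described here, Gsdma, Gsdmc, Gsdmc2, Gsdmc3, Gsdmc4 and Gsdmd, were picked by symbol out of 32285 genes measured by droplet single-cell RNA sequencing of sorted EpCAM+ thymic epithelial cells of mice. They were chosen because the number of Gsdmc2 molecules differed strongly between the libraries, so every difference in Gsdmc2 given here is a description of that choice and not a finding. The mice of the first library carried Cre and its title is Foxp1 KO, while those of the second lacked Cre and its title is Foxp1 WT. Foxp1 is a forkhead transcription factor. The sources used here do not give the Cre driver, the deleted part of Foxp1, or the age and number of the mice. The genotype entry is KO in both cases, and the titles were used instead. With 1 library per group there is no replicate check and no test was made. Values are counts of unique molecular identifiers (UMIs, each taken as 1 captured RNA molecule) or CPM, the counts scaled to a fixed total of UMIs of the same cells. Intervals in brackets are exact 95% intervals. They cover counting error only, and not the gathering of many UMIs in single cells, which is described below.

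The depth of the libraries labelled KO and WT was 25233944 and 33120715 UMIs. The filters kept 3584 KO-labelled cells, at a median depth of 5097.5 UMIs, and 4037 WT-labelled cells, at 6267 UMIs, and 5 cell barcodes occurred in both libraries. The cells fell into 16 clusters, of which 12 were taken as epithelial (3259 KO-labelled and 3880 WT-labelled cells). Cluster 8 carried 7 of the 9 Aire-stage markers and is called Aire-stage (463 KO-labelled and 736 WT-labelled cells), and the summed level of those markers in it was 9134 CPM in the KO-labelled library and 8838 CPM in the WT-labelled library. Foxp1 itself went against the labels, at 405 CPM in epithelial cells of the KO-labelled library and 252 CPM in those of the WT-labelled library, a whole-gene count that cannot show which exons were deleted. The groups are therefore called the KO-labelled and the WT-labelled library.

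A gasdermin consists of an N-terminal pore-forming part held inactive by a C-terminal part. Proteases such as caspases cut the link between them, the freed N-terminal parts insert into the plasma membrane, and the cell releases cytokines such as interleukin-18 and may die by pyroptosis. Gsdmd is the broadly made member, cut by inflammatory caspases. Gsdma and its copies are known from skin and upper digestive tract epithelium. The mouse Gsdmc genes are known from gut epithelium, where type 2 cytokines acting through Il4ra and Stat6 raise them. In the thymic medulla, Aire lets epithelial cells transcribe many genes of peripheral tissues, each in a small share of the cells, which shows those proteins to developing T cells.

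The 4 Gsdmc genes lie side by side on the minus strand of chromosome 15 (build mm10, annotation GENCODE M21), within 136 kb. Gsdmc is at chr15:63775968-63808759, Gsdmc2 at chr15:63824346-63845177, Gsdmc3 at chr15:63857724-63878558 and Gsdmc4 at chr15:63891264-63912297, with gaps of 15.6, 12.5 and 12.7 kb between them. Gsdmd, at chr15:75862327-75867408 on the plus strand, is on the same chromosome but 11950.0 kb away. Gsdma, at chr11:98664351-98677708 on the plus strand, is the last of 3 neighbouring Gsdma genes, with Gsdma2 6.39 kb and then Gsdma3 8.53 kb before it. None of the 6 overlaps another annotated gene. The Gsdmc genes are close copies, and how close bears on every value given for a single copy. The start of their coding sequences, the first 120 bases from the start codon in the GENCODE M21 transcripts, is printed with capitals at each base that differs from Gsdmc2.
Gsdmc2: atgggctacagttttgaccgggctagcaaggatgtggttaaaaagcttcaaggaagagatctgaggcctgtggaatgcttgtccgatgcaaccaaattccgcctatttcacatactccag
Gsdmc3: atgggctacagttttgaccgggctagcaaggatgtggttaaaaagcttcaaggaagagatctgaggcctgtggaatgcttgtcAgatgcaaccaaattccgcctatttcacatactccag
Gsdmc4: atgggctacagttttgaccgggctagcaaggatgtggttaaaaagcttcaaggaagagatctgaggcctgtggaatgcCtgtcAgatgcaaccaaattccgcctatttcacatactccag
Gsdmc: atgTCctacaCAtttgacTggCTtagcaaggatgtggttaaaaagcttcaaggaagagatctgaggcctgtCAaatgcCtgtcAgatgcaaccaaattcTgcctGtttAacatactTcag

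In this stretch Gsdmc3 differed from Gsdmc2 at 1 base, Gsdmc4 at 2 and Gsdmc at 15. Over the whole coding sequence Gsdmc2 was 97.1% identical to Gsdmc3, 93.8% to Gsdmc4 and 87.0% to Gsdmc, whereas Gsdmd was 62.2% identical to Gsdmc2. Of all 50-base windows of the transcript used for each gene, 48.5% of those of Gsdmc2, 46.95% of those of Gsdmc3, 39% of those of Gsdmc4 and 16.4% of those of Gsdmc also occurred in another gasdermin. For Gsdma the share was 8.26%, and for Gsdmd it was 0. How reads that match more than 1 copy were assigned is not given in the sources used here, so the split between Gsdmc2, Gsdmc3 and Gsdmc4 is less certain than their sum.

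Gsdmd, the member cut by inflammatory caspases, was found in every epithelial cluster and at like levels in both libraries. Over epithelial cells it had 656 UMIs in 520 of 3259 cells of the KO-labelled library and 882 UMIs in 664 of 3880 cells of the WT-labelled library. These are 29.4 [27.2, 31.8] CPM in KO-labelled and 28.7 [26.8, 30.7] CPM in WT-labelled cells, a log2 ratio of 0.03 [-0.11, 0.18]. A cell with Gsdmd mostly held a single UMI, in 79.6% of such cells in the KO-labelled library and 75.5% in the WT-labelled library, and the highest KO-labelled cell had 5 and the highest WT-labelled cell 7 UMIs. After each cell was thinned to 2000 UMIs, 5.02% of KO-labelled and 4.84% of WT-labelled epithelial cells had a Gsdmd UMI. Before thinning 15.96% of KO-labelled and 17.1% of WT-labelled cells had one. A cell type known to lack Gsdmd is not at hand, so the share that free RNA gives is unknown for this gene.

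The highest and the lowest epithelial cluster for Gsdmd were the same in both libraries. Cluster 5 was highest, at 70.5 [53.1, 91.8] CPM in the KO-labelled library and 69.7 [55.8, 86.0] CPM in the WT-labelled library. Taken as a whole, this cluster carries all 8 microfold markers and also 12 of 13 gut and liver markers, such as Fabp1 and Apoa4. That does not show both sets in the same cells. At Leiden resolution 2 a microfold-like cluster of 178 cells and a gut- and liver-like cluster of 127 cells were named apart. Tuft-like cells of cluster 1, a chemosensory type, were lowest, at 11.2 [6.96, 17.2] CPM in 20 of 266 KO-labelled cells and 9.60 [6.68, 13.4] CPM in 32 of 506 WT-labelled cells. Neuroendocrine-like cells of cluster 3 were also low, at 16.2 [10.9, 23.3] CPM in KO-labelled and 22.4 [16.3, 29.9] CPM in WT-labelled cells.
The other 9 epithelial clusters lay between 21.9 and 51.6 CPM in the KO-labelled library and between 20.1 and 42.4 CPM in the WT-labelled library, and neighbours in that order had overlapping intervals. In Aire-stage cells Gsdmd had 21.9 [18.1, 26.2] CPM in the KO-labelled library and 26.2 [23.1, 29.7] CPM in the WT-labelled library. The log2 ratio was -0.26 [-0.59, 0.06], which thinning to 2000 UMIs moved to -0.82 [-1.78, 0.06] and clustering at resolution 2 to 0.04 [-0.27, 0.34]. Outside the epithelial clusters, 1 of 24 KO-labelled and 1 of 12 WT-labelled fibroblast-like cells had a Gsdmd UMI. Gsdmd was not scarce in the endothelial-like cluster 13, where 118 of 261 KO-labelled and 48 of 99 WT-labelled cells had Epcam. This cluster held 56 Gsdmd UMIs in the KO-labelled library, 7.76% of them, beside 7.36% of all UMIs. In the WT-labelled library it held 43 Gsdmd UMIs, 4.58% of them, beside 2.95% of all UMIs. Of the 12 epithelial clusters' ratios, every interval included 0.

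**Figure D1:**
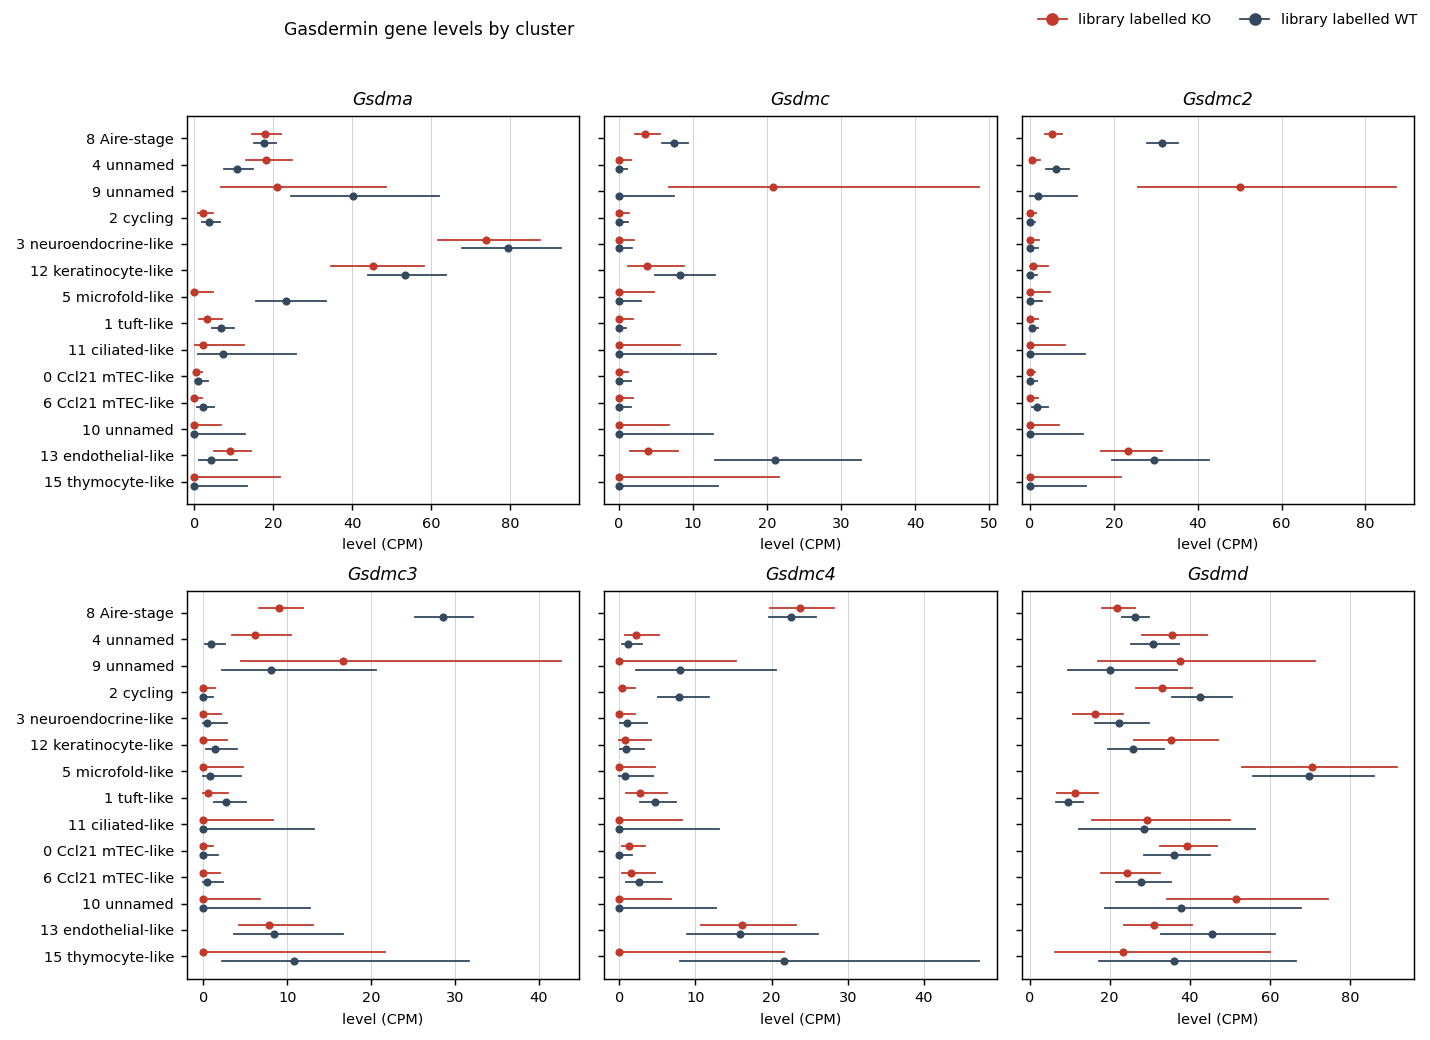
Level of each of the 6 gasdermin genes (CPM, horizontal axis, scale differs by gene) in 14 clusters, with the KO-labelled library in red above the WT-labelled library in dark blue and exact 95% Poisson intervals as lines. Gsdmd is present in all clusters and highest in cluster 5, Gsdma is highest in clusters 3 and 12, and Gsdmc2 has 5.23 CPM (KO-labelled) and 31.5 CPM (WT-labelled) in cluster 8 but 23.4 CPM (KO-labelled) and 29.6 CPM (WT-labelled) in cluster 13.

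The genes whose pattern over the 12 epithelial clusters was most like that of Gsdmd, by Pearson's r of log2(CPM + 10) with both libraries pooled, were Chmp4c (r = 0.81), 4930556J24Rik (0.79), Gm26714 (0.78), Rap2c (0.75), Mfge8 (0.75) and Oaf (0.74). Chmp4c encodes a subunit of the ESCRT-III machinery, which repairs membranes. These r describe 12 clusters that share libraries and differ in depth.

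Gsdma, a skin gasdermin, was concentrated in a few clusters. Neuroendocrine-like cells had 132 Gsdma UMIs in 60 of 176 cells of the KO-labelled library and 160 UMIs in 62 of 166 cells of the WT-labelled library, or 73.8 [61.8, 87.5] CPM in KO-labelled and 79.5 [67.7, 92.9] CPM in WT-labelled cells. Cluster 12, which as a whole carries all 10 keratinocyte markers, is called keratinocyte-like. Its KO-labelled cells had 45.2 [34.5, 58.2] CPM of Gsdma (60 UMIs in 25 of 189). Its WT-labelled cells had 53.2 [44.0, 63.8] CPM (117 UMIs in 43 of 305). These clusters together held 52.7% of the Gsdma UMIs of the KO-labelled library and 47.7% of those of the WT-labelled library, beside 10.2% of KO-labelled and 11.7% of WT-labelled cells. In the Ccl21a-expressing cells of cluster 0, where free RNA would also be counted, 1 of 492 KO-labelled cells (median depth 5530.5 UMIs) and 2 of 313 WT-labelled cells (6280 UMIs) had a Gsdma UMI. The neuroendocrine-like cells had median depths of 8541.5 UMIs (KO-labelled) and 9741 UMIs (WT-labelled).

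Aire-stage cells had 17.9 [14.5, 21.9] CPM of Gsdma in the KO-labelled library and 17.7 [15.1, 20.5] CPM in the WT-labelled library, in 39 of 463 KO-labelled and 66 of 736 WT-labelled cells, a log2 ratio of 0.02 [-0.35, 0.39]. In cluster 5 of the KO-labelled library 0 of 130 cells had a Gsdma UMI. The approximate bound used here for a count of 0, 3 cells, would be 2.31%. In cluster 5 of the WT-labelled library 29 UMIs were found in 9 of 199 cells, or 23.2 [15.6, 33.4] CPM. That interval counts UMIs and not cells, and whether the libraries differ in this cluster was not tested. Over all epithelial cells Gsdma stood at 15.6 [14.01, 17.3] CPM in the KO-labelled library and 18.8 [17.3, 20.4] CPM in the WT-labelled library, a log2 ratio of -0.27 [-0.46, -0.07], and it turned to 0.13 [-0.31, 0.56] when cells were thinned to 2000 UMIs.

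The Gsdmc genes had another pattern. Few cells held them, most of those cells were in the Aire-stage cluster, and a positive cell often held many UMIs. Any of the 4 genes was found in 41 of 463 Aire-stage cells of the KO-labelled library, 8.86% [6.43, 11.8], and in 86 of 736 of the WT-labelled library, 11.7% [9.45, 14.2]. The log2 ratio of these shares was -0.40 [-0.97, 0.15]. The median depth of Aire-stage cells was 10367 UMIs (KO-labelled) and 11627.5 UMIs (WT-labelled). Cycling cells of cluster 2 were at least as deep, at 11899 UMIs (KO-labelled) and 12674 UMIs (WT-labelled). Of them, 0 of 224 KO-labelled cells (bound of 3 cells, 1.34%) and 0 of 237 WT-labelled cells (1.27%) had a UMI of Gsdmc. The same counts of 0 held for Gsdmc2 and for Gsdmc3. For Gsdmc4, 1 KO-labelled cycling cell had 1 UMI and 2 WT-labelled cycling cells had 24 UMIs together.

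Gsdmc2, the gene that led to the choice, had 28 UMIs in 11 of 463 Aire-stage cells of the KO-labelled library and 301 UMIs in 42 of 736 of the WT-labelled library. That is 5.23 [3.48, 7.56] CPM in KO-labelled and 31.5 [28.0, 35.2] CPM in WT-labelled cells, a log2 ratio of -2.59 [-3.20, -2.03]. The positive cells were fewer (2.38% [1.19, 4.21] of KO-labelled and 5.71% [4.14, 7.64] of WT-labelled cells) and also held fewer UMIs each, 2.55 in the KO-labelled library and 7.17 in the WT-labelled library. In the WT-labelled library, 12 Aire-stage cells had 10 or more Gsdmc2 UMIs and the highest had 30. In the KO-labelled library 1 such Aire-stage cell was found, with 12 UMIs.

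Gsdmc3, the closest copy of Gsdmc2, had 48 UMIs in 13 Aire-stage cells of the KO-labelled library and 273 UMIs in 38 of the WT-labelled library, or 8.97 [6.61, 11.9] CPM in KO-labelled and 28.5 [25.3, 32.1] CPM in WT-labelled cells (log2 ratio -1.67 [-2.14, -1.22]). Gsdmc had 3.55 [2.14, 5.55] CPM in KO-labelled Aire-stage cells (19 UMIs in 9 cells) and 7.42 [5.80, 9.36] CPM in WT-labelled ones (71 UMIs in 13 cells), a log2 ratio of -1.06 [-1.88, -0.32].
For Gsdmc4 the Aire-stage values overlapped. It had 127 UMIs in 23 Aire-stage cells of the KO-labelled library and 216 UMIs in 50 of the WT-labelled library, or 23.7 [19.8, 28.2] CPM in KO-labelled and 22.6 [19.7, 25.8] CPM in WT-labelled cells, a log2 ratio of 0.07 [-0.26, 0.39]. Its positive cells held 5.52 UMIs (KO-labelled) and 4.32 UMIs (WT-labelled) on average, and 5 cells supplied 61.4% of its Aire-stage UMIs in the KO-labelled library and 31.0% in the WT-labelled library. Summed over the 4 copies, which does not depend on the split between them, Aire-stage cells had 222 UMIs (41.5 CPM) in the KO-labelled library and 861 UMIs (90.0 CPM) in the WT-labelled library, a log2 ratio of -1.12 [-1.34, -0.90].
Over all epithelial cells the log2 ratios were -2.51 [-3.01, -2.04] for Gsdmc2, -1.68 [-2.09, -1.29] for Gsdmc3, -1.16 [-1.81, -0.54] for Gsdmc and -0.46 [-0.76, -0.16] for Gsdmc4. After thinning to 2000 UMIs they were 0.32 [-0.86, 1.495] for Gsdmc and 0.21 [-0.46, 0.87] for Gsdmc4, so the direction of these genes over all epithelial cells turned, while Gsdmc2 and Gsdmc3 stayed below 0. Aire-stage cells were 14.2% of the KO-labelled and 19.0% of the WT-labelled epithelial cells. The ratios over all epithelial cells thus mix the share of Aire-stage cells with the level in them, and the part of that share was not tested.

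**Figure D2:**
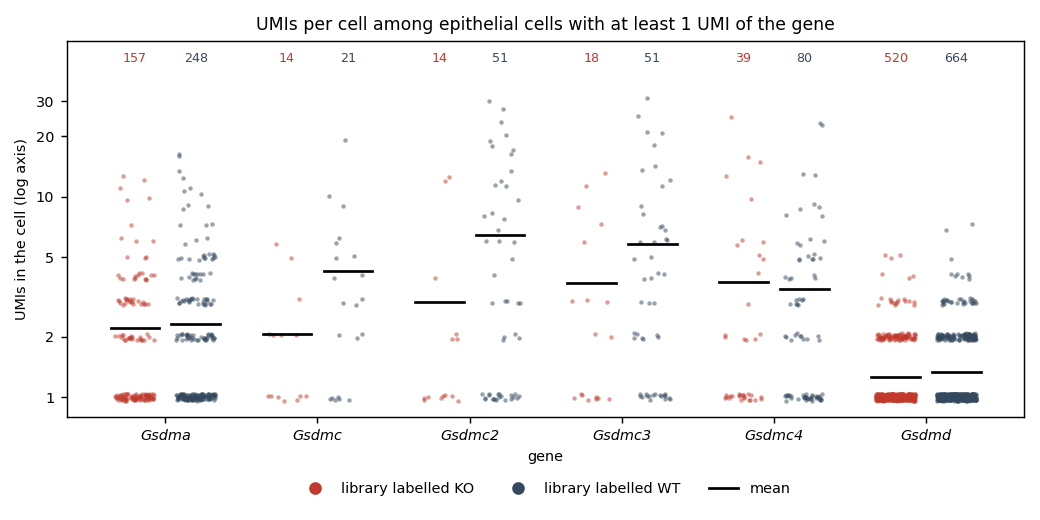
UMIs of each gasdermin gene (vertical log axis) in every epithelial cell with at least 1 UMI of it, 1 point per cell, with the KO-labelled library in red left of the WT-labelled library in dark blue, the number of cells above and the mean as a bar. Most cells with Gsdmd held 1 UMI, whereas Gsdmc2 reached 12 UMIs in the KO-labelled library and 30 in the WT-labelled library, with means of 3.0 UMIs (KO-labelled) and 6.45 UMIs (WT-labelled).

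Over all epithelial cells, 3 of the 6 genes (Gsdmc, Gsdmc2 and Gsdmc3) had a log2 ratio of -1 or less and 0 had 1 or more. Among all 18990 genes with at least 50 UMIs in the libraries together, 2.56% had -1 or less and 1.65% had 1 or more. All 6 genes passed that minimum. In Aire-stage cells 3 of the 6 again had -1 or less and 0 had 1 or more, beside 3.26% and 2.94% of 15575 genes. The median log2 ratio of the 6 was -0.81 in epithelial cells and -0.66 in Aire-stage cells, beside medians of -0.01 and -0.02 over all genes. Over all kept cells 3 of the 6 had -1 or less and 0 had 1 or more, beside 2.31% and 1.89% of genes, and likewise 3 and 0 in cells with at least 3 Aire UMIs, beside 3.13% and 2.32%. Because Gsdmc2 chose the list and its copies may share its reads, nothing is read from these counts.

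The Gsdmc2 difference depended on which cells were counted. Cluster 13, left out of the epithelial cells because it carries all 8 endothelial markers, held 42 Gsdmc2 UMIs in 5 of its 261 cells in the KO-labelled library and 28 UMIs in 6 of its 99 cells in the WT-labelled library, or 23.4 [16.8, 31.6] CPM in KO-labelled and 29.6 [19.7, 42.8] CPM in WT-labelled cells (log2 ratio -0.34 [-1.07, 0.40]). It thus contained 42 of the 84 Gsdmc2 UMIs of the KO-labelled library and 28 of the 357 (7.84%) of the WT-labelled library. With this cluster added, the epithelial log2 ratio was -1.69 [-2.05, -1.35] instead of -2.51 [-3.01, -2.04]. Cells with at least 3 Aire UMIs, taken without clusters, had 69 Gsdmc2 UMIs in 16 of 761 cells of the KO-labelled library and 259 in 40 of 1091 of the WT-labelled library, a log2 ratio of -1.26 [-1.67, -0.87].
The 5 cells of cluster 13 with Gsdmc2 in the KO-labelled library all had Epcam, at least 3 Aire UMIs and 6 to 18 UMIs of endothelial markers, with a median depth of 19991 UMIs. Of the 6 such cells in the WT-labelled library, all had Epcam, 4 had at least 3 Aire UMIs, endothelial-marker UMIs were 12 to 41 and the median depth was 18217. In the whole cluster 70 of 261 KO-labelled and 34 of 99 WT-labelled cells had at least 3 Aire UMIs. Of the cells of the cluster with any Gsdmc gene, 8 of 8 KO-labelled and 7 of 11 WT-labelled cells had at least 3 Aire UMIs. The median depth of the cluster's cells with at least 3 Aire UMIs was 12125.5 UMIs (KO-labelled) and 16843.5 UMIs (WT-labelled), and of those with fewer it was 2800 UMIs (KO-labelled) and 3532 UMIs (WT-labelled). Of the endothelial markers 8 of 8 were detected in both libraries, with summed levels of 2144 CPM (KO-labelled) and 2138 CPM (WT-labelled) in cluster 13 and of 88.8 CPM (KO-labelled) and 72.0 CPM (WT-labelled) in Aire-stage cells. The part of these mixed-marker cells in the Gsdmc2 difference beyond the values given was not tested, and neither was whether such a barcode holds 1 cell, since a doublet search called 0 cells in either library.

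**Figure D3:**
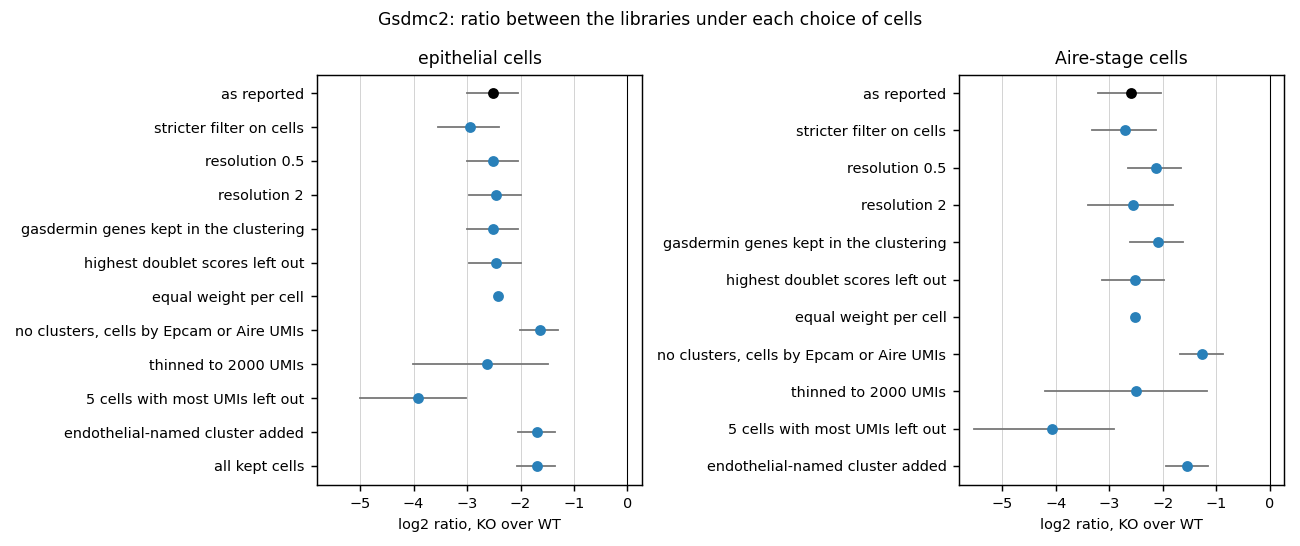
Log2 ratio of Gsdmc2, KO-labelled over WT-labelled library (horizontal axis), in epithelial cells (left) and Aire-stage cells (right) as reported (black) and under each other choice of cells or counting (blue), with exact 95% intervals where one applies. All values are below 0, between -3.92 and -1.64 in epithelial cells and between -4.07 and -1.26 in Aire-stage cells.

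Single cells also decided values. Without the 5 cells with the most Gsdmc2 UMIs in each library the epithelial log2 ratio was -3.92 [-5.00, -3.01]. Those cells held 76.2% of the epithelial Gsdmc2 UMIs of the KO-labelled library and 36.5% of those of the WT-labelled library. In cluster 9, an unnamed cluster of low RNA content, 1 cell of the KO-labelled library carried 12 Gsdmc2, 5 Gsdmc and 3 Gsdmc3 UMIs. In cluster 4, an unnamed cluster led by Klk1b26, Ccl22 and Nos2, 1 cell of the WT-labelled library carried 17 of the 21 Gsdmc2 UMIs found there.

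Of the Aire-stage cells with any Gsdmc gene, 26.8% of KO-labelled and 40.7% of WT-labelled cells held 2 or more of the 4. Of the 53 Aire-stage cells with Gsdmc2 in the libraries together, 29 (54.7% [40.4, 68.4]) also had Gsdmc3, against 22 of the 1146 cells without Gsdmc2 (1.92% [1.21, 2.89]), a 28.5-fold difference in share. Gsdmc4 was found in 22 of the 53 (41.5% [28.1, 55.9]) and in 51 of the 1146 (4.45% [3.33, 5.81]). Over the 12 ordered pairs of Gsdmc genes the fold ranged from 5.67 to 28.5, with a median of 11.9. The median was 9.19 within the KO-labelled library and 13.5 within the WT-labelled library, and 11.8 in cells of at least 5000 UMIs.
Among Gsdma and its neighbours Gsdma2 and Gsdma3 the fold ranged from 1.63 to 7.44 over 6 ordered pairs. It was lowest between Gsdma and Gsdma3, where the intervals overlapped. Gsdma3 was found in 12 of 105 cells with Gsdma (11.4% [6.05, 19.1]) and in 76 of 1094 without (6.95% [5.51, 8.62]). Of 72 cells with Gsdma2, 30 had Gsdma, against 75 of 1127 without. Pairs of a Gsdmc gene with a gasdermin elsewhere ranged from 0.41- to 2.56-fold, with a median of 1.31 over the 18 of 20 ordered pairs that shared a cell. Gsdmd, on the same chromosome, was found in 13 of the 53 cells with Gsdmc2 (24.5%) and in 251 of the 1146 without (21.9%). The median depth of cells with Gsdmc2 was 9114 UMIs and of those without 10380 UMIs in the KO-labelled library. It was 14423 UMIs with and 11547.5 UMIs without in the WT-labelled library, so the order was not the same in both. The minimum of 5000 UMIs kept 10 of 11 KO-labelled and 40 of 42 WT-labelled cells with Gsdmc2. Of those without it, 430 of 452 KO-labelled and 654 of 694 WT-labelled cells were kept. A minimum that leaves out so few cells cannot decide the part of depth, which was not tested.

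**Figure D4:**
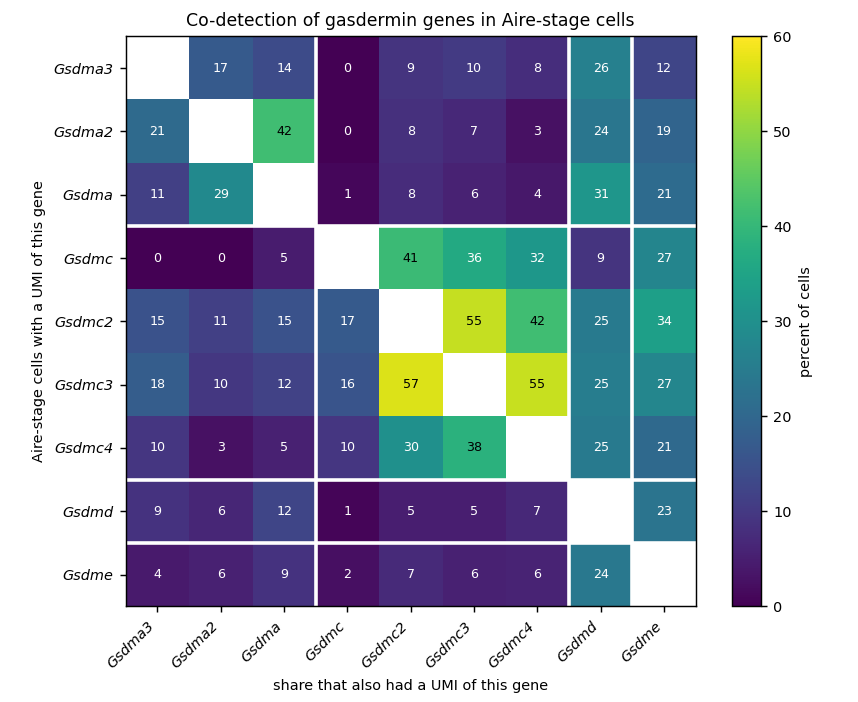
Share of Aire-stage cells with a UMI of the row's gene that also had a UMI of the column's gene (percent, colour and number), libraries pooled, with white lines between genes that do not neighbour each other. The highest share is 56.9%, of cells with Gsdmc3 that also had Gsdmc2, and 41.7% of cells with Gsdma2 also had Gsdma.

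Because the copies share much of their sequence, single cells with many UMIs of 1 copy were examined. Of the epithelial cells with at least 5 Gsdmc4 UMIs, 7 of 10 in the KO-labelled library and 10 of 20 in the WT-labelled library had 0 UMIs of the other 3 Gsdmc genes. For Gsdmc2 the numbers were 0 of 2 KO-labelled and 2 of 21 WT-labelled cells, and for Gsdmc3 1 of 5 KO-labelled and 3 of 20 WT-labelled cells. The part that shared reads have in the co-detection was not tested further. Among the cells of the WT-labelled library with at least 10 Gsdmc2 UMIs, a cell with 30 Gsdmc2 UMIs had 0 of Gsdmc3 and Gsdmc4 and 5 of Gsdmc, while another with 20 Gsdmc2 UMIs had 32 of Gsdmc3 and 0 of Gsdmc4.

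In CPM, the Aire level of Aire-stage cells with a Gsdmc gene was below that of the rest in both libraries. It was 766 [686, 851] CPM with and 985 [958, 1013] CPM without a Gsdmc UMI in the KO-labelled library, and 734 [689, 781] CPM with and 901 [880, 922] CPM without in the WT-labelled library. Fezf2, another regulator of self-antigen genes, stood at 361 [308, 422] CPM with and 432 [413, 450] CPM without in the KO-labelled library and at 499 [462, 538] CPM with and 539 [524, 556] CPM without in the WT-labelled library. The cells with a Gsdmc UMI had a median depth of 9565 UMIs and those without 10383.5 UMIs in the KO-labelled library, and 13597.5 and 11438.5 UMIs in the WT-labelled library. The Aire counts were 341 UMIs in 41 cells with and 4832 in 422 cells without in the KO-labelled library. In the WT-labelled library they were 1001 UMIs in 86 cells with and 7388 in 650 cells without. CPM divides by depth, and the part of depth in these levels was not tested. When Aire-stage cells were divided by their Aire UMIs, any Gsdmc gene was found in 4 of 23 cells with 0, 4 of 47 with 1 to 2, 18 of 160 with 3 to 9 and 15 of 233 with 10 or more in the KO-labelled library. The numbers in the WT-labelled library were 5 of 39, 6 of 64, 33 of 262 and 42 of 371. Gsdmc2 was found in 3 of 233 cells with 10 or more Aire UMIs in the KO-labelled library (1.29% [0.27, 3.72]) and in 22 of 371 in the WT-labelled library (5.93% [3.75, 8.84]), and in 7 of 160 KO-labelled (4.38%) and 12 of 262 WT-labelled (4.58%) cells with 3 to 9. With 1 to 2 Aire UMIs, 0 of 47 KO-labelled and 3 of 64 WT-labelled cells had Gsdmc2. With 0 Aire UMIs, 1 of 23 KO-labelled and 5 of 39 WT-labelled cells had it.

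By pattern over the 12 epithelial clusters the genes most like Gsdmc2 were Tmsb15a (Pearson's r = 0.996), A2m (0.994), Crybb2 (0.992), Slc6a12 (0.987), Nms (0.986) and Tpsg1 (0.985), all highest in the Aire-stage cluster. That cluster held 329 of the 371 epithelial Gsdmc2 UMIs, so a high r largely restates that a gene is highest there. Nms had 50 and Slc6a12 had 55 epithelial UMIs, where 50 was the minimum. Crybb2 encodes a lens crystallin and Nms the neuropeptide neuromedin S. Gsdmc3 had r = 0.98 with Gsdmc2, Gsdmc4 0.83, Gsdmc 0.73, Gsdma 0.29 and Gsdmd -0.20.

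The genes that flank the Gsdmc copies had log2 ratios between -0.22 and 0.63, of which that of A1bg rests on 5 epithelial UMIs in each library. Fam49b, 16.8 kb beyond Gsdmc4, had log2 ratios of 0.14 [0.06, 0.22] in epithelial cells and 0.22 [0.02, 0.41] in Aire-stage cells. Asap1, an Arf GTPase-activating protein gene, had 0.07 [-0.01, 0.14] and 0.29 [0.13, 0.44], and the adenylate cyclase gene Adcy8 had -0.21 [-0.44, 0.03] and 0.63 [0.26, 1.0]. On the other side, Myc had -0.22 [-0.37, -0.06] and -0.20 [-0.51, 0.10] and Fam84b 0.18 [-0.04, 0.40] and 0.38 [-0.08, 0.83].

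Of the gasdermins outside the list, Gsdme had 23.3 [21.3, 25.4] CPM in epithelial cells of the KO-labelled library and 17.5 [16.1, 19.1] CPM in those of the WT-labelled library, a log2 ratio of 0.41 [0.23, 0.59]. In Aire-stage cells Gsdma2 had 24.1 CPM (KO-labelled) and 18.4 CPM (WT-labelled), a log2 ratio of 0.39 [0.05, 0.73]. Gsdma3 had 6.17 CPM (KO-labelled) and 8.68 CPM (WT-labelled), a log2 ratio of -0.49 [-1.12, 0.11]. Pjvk, a gasdermin relative needed for hearing, had 6 KO-labelled and 9 WT-labelled epithelial UMIs.

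Genes that act with gasdermins were taken from 6 lists. The shares of all genes with a log2 ratio of -1 or less and of 1 or more, given above, were 2.56% and 1.65% in epithelial cells and 3.26% and 2.94% in Aire-stage cells. Of the 12 caspases and other proteases listed under gasdermin cleavage, 10 reached 50 UMIs in epithelial cells. Of these, 0 had a log2 ratio of 1 or more and 1 had -1 or less, and their median was -0.07. A place in the list does not show that a protease cuts a gasdermin. Casp1, which cuts Gsdmd in inflammasomes, had 74.3 CPM (KO-labelled) and 76.4 CPM (WT-labelled), and Casp4, the sensor of bacterial lipopolysaccharide, 290.2 CPM (KO-labelled) and 310.4 CPM (WT-labelled). Casp12 (0.31) had the highest ratio and the granzyme genes Gzma (-1.89 [-2.57, -1.27]) and Gzmb (-0.57) the lowest. Gzma, a killer-cell protease that cuts human gasdermin B, was also low in Aire-stage cells, with 11 UMIs in the KO-labelled library and 94 in the WT-labelled library (-2.26 [-3.31, -1.35]).

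Of the inflammasome sensors and adaptors 15 of 16 were measured and 1 had -1 or less, with a median of -0.03. This was Nlrp1a, a sensor with 16 KO-labelled and 68 WT-labelled epithelial UMIs (-1.63 [-2.51, -0.82]), and after it Naip5, a flagellin sensor (-0.43). Naip6 (0.36) and Nlrp1b (0.28) were highest, and the adaptor Pycard had 91.0 CPM (KO-labelled) and 89.5 CPM (WT-labelled). Of 10 symbols listed as cytokines and rupture genes 8 were matched and measured, with a median of 0.04 and 0 beyond 1 in either direction. Il33 (0.60 [0.36, 0.84]) and Hmgb1 (0.30) were highest and Il1a (-0.89) and Il1rn (-0.27) lowest. Il18 had a log2 ratio of 0.01 [-0.39, 0.40] in epithelial cells. In Aire-stage cells it was the only one of the 7 measured genes of this list at 1 or more, with 55 KO-labelled UMIs (10.3 CPM) against 43 WT-labelled UMIs (4.50 CPM), a log2 ratio of 1.19 [0.59, 1.80]. Ninj2 had -0.10 in epithelial cells and 0.70 in Aire-stage cells.

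The 15 regulators had a median of 0.00 in epithelial cells, with 0 beyond 1 in either direction. The receptor gene Il4ra was lowest, at 55.6 CPM (KO-labelled) and 74.8 CPM (WT-labelled), a log2 ratio of -0.43 [-0.53, -0.33]. The factor Stat6, through which it signals, came next, at 29.1 CPM (KO-labelled) and 35.4 CPM (WT-labelled), a log2 ratio of -0.29 [-0.43, -0.14]. In Aire-stage cells they stood at -0.43 [-0.64, -0.22] and -0.33 [-0.67, 0.00]. Mettl3 (0.56), an RNA methyltransferase gene, and Fto (0.19), an RNA demethylase gene, were highest. Irf2, a known activator of Gsdmd, had 148.7 CPM (KO-labelled) and 138.4 CPM (WT-labelled), a log2 ratio of 0.10.
All 13 genes of the ESCRT-III list lay between -0.25 (Vps4a) and 0.31 (Chmp7), with a median of 0.02, the next lowest and highest being Chmp4b (-0.11) and Chmp6 (0.12). Of the 10 genes of necroptosis and apoptosis, Ripk3 (0.90 [0.53, 1.27]) and Bcl2 (0.61) were highest and Bcl2l1 (-0.38) and Mlkl (-0.25) lowest, with a median of -0.06. Ripk3 and Mlkl encode the kinase and the pore protein of necroptosis. In Aire-stage cells Mlkl had 12 KO-labelled and 47 WT-labelled UMIs (-1.13 [-2.18, -0.19]). The higher Ripk3 was not seen there, with 31 KO-labelled and 55 WT-labelled UMIs (0.01 [-0.67, 0.67]).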

How the data were processed

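Per the file headers, the deposited UMI counts came from Cell Ranger 7.0.1 and were not normalized. Seurat and the build mm10 also appear in the submitters' processing notes. Barcodes with 500 or more genes, 1000 or more UMIs and 10% or less mitochondrial UMIs were used. scanpy 1.11.5 clustered both libraries together (3000 variable genes, 30 components, 15 neighbours, Leiden resolution 1) without gasdermin genes, and clusters were named from 20 marker lists when 3 markers and 33% of a list reached 2-fold and 10% of the cells. Scrublet called 0 doublets, which is taken as a failed search, and doublets were kept. UMIs were summed per library and cell class, with exact Poisson, conditional binomial and Clopper-Pearson 95% intervals from scipy 1.17.1. The ratio and its interval were tried on simulated Poisson counts, which lack the gathering of many UMIs in single cells. That trial cannot show how the interval holds for the Gsdmc genes. No sample columns were left out.

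The genes, lists, markers and rules were chosen with earlier results of these data known. Named are all 6 genes, other gasdermins, the 2 highest and 2 lowest ratios of each list, the 6 genes most like Gsdmc2 and Gsdmd, and 3 flanking genes on each side. Casp1, Casp4, Pycard, Irf2 and the Aire-stage values outside that rule were named after their values were seen. A gene that the rule would name among the proteases is not reported here. Coding sequences were aligned with Biopython 1.88.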

Additional observations from a re-analysis of the deposited data

How the results depend on the processing

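The log2 ratio (KO-labelled over WT-labelled library) of Gsdmc2 stayed below 0 under all 11 alternatives in epithelial cells and all 10 in Aire-stage cells, but its size moved. In epithelial cells it was -2.51 as reported, -1.64 when cells were taken by Epcam without clusters, -3.92 without the 5 cells with most UMIs, -1.69 with the endothelial-named cluster added and -1.70 over all kept cells. In Aire-stage cells it was -2.59 as reported, -1.26 by Aire UMIs without clusters, -4.07 without the 5 top cells and -1.54 with endothelial-named cells of at least 3 Aire UMIs added. The last additions were chosen after seeing the data. Gsdmc3 moved from -1.68 to -1.22 with equal weight per cell and to -2.63 without the 5 top cells, and Gsdmc4 from -0.46 to -1.06 without them. Thinning to 2000 UMIs turned Gsdma to 0.13, Gsdmc4 to 0.21 and Gsdmc to 0.32 and moved Gsdmd in Aire-stage cells from -0.26 to -0.82, and it leaves few UMIs of these genes. Gsdmd in Aire-stage cells was also 0.04 at resolution 2 and -0.01 when the highest doublet scores were left out. It was -0.37 [-0.73, -0.03] without the 5 top cells, so its direction depended on the choice of cells. Gsdmd in epithelial cells stayed between 0.01 and 0.14. The cause of these shifts was not tested. No paired analysis was possible because each group has 1 library.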
